A study of Arabidopsis thaliana and Setaria viridis and Zea mays with 22 samples.

Results

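Nuclei from root tips of 2 grasses were compared, Setaria viridis strain A10.1 with 2 libraries and sorghum (Sorghum bicolor) strain Btx623 with 3 libraries. All nuclei that the grass table assigns to these 5 libraries were taken, which gave 25777 of the 43212 grass cells and nuclei used here. Setaria contributed 16002 nuclei and sorghum 9775. Per the labels, Setaria seed was germinated with liquid smoke, grown for 15 days in paper rolls and its tips were cut at 0.2 cm, whereas sorghum was grown for 7 days and cut at 0.5 cm. The age tag of all samples reads 10 days, which differs from both growth times. Primary and seminal root tips were lysed to release nuclei, and both groups were run with version 3 of the 10x Chromium 3′ chemistry. Maize (Zea mays, strain B73) root nuclei, run with version 2, entered the fits to estimate the spread between libraries. Species, strain, growth time, tip length and germination treatment change together between the 2 groups and cannot be told apart. Since the labels do not say that the libraries of a species derive from different plantings, a p-value here reflects library-to-library spread alone, part or all of which may be technical.

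A grass root tip holds a cap, a meristem of dividing cells and files of epidermis, cortex, endodermis and stele that begin to differentiate behind it. A shorter or longer piece of tip therefore takes in different amounts of dividing and maturing cells. Setaria viridis is a small wild relative of millets and sorghum is a large cereal, and both carry out C4 photosynthesis in their leaves. In droplet sequencing each nucleus is described by its unique molecular identifiers (UMIs, a count of captured transcripts), by the number of genes with at least 1 UMI, and by the cluster of similar nuclei to which it was assigned. The grass table gives 19 clusters, numbered 0 to 18, shared by all grass libraries. It holds no genes and no cell type names, so no cluster is named here and the labelled tissue, root meristem, could not be checked against its markers.

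Setaria replicates 1 and 2 held 7451 and 8551 nuclei, and the sorghum libraries Sorgh_Nucl, Sorgh_Nucl1 and Sorgh_Nucl2 held 3844, 3762 and 2169. Total UMIs were 21038970 and 26778050 in the Setaria libraries, against 7582662, 15690915 and 5111739 in the sorghum libraries. Values of the sorghum libraries are listed as Sorgh_Nucl, Sorgh_Nucl1 and Sorgh_Nucl2 throughout, and those of Setaria by replicate number. Of 25706 barcodes, 71 occurred in more than 1 of the 5 libraries, with 1 to 20 shared by any pair. The sorghum libraries stood apart from each other in several ways. Nuclei with fewer than 1318 UMIs, the lowest value in Sorgh_Nucl1, made up 0.711% and 0.117% of Setaria nuclei, against 57.4% of Sorgh_Nucl and 9.17% of Sorgh_Nucl2. The 90th percentile of UMIs was 2.33 and 2.26 times the 10th in Setaria, against 4.48, 6.28 and 2.45 times in sorghum, so UMIs spread most in Sorgh_Nucl1. Sorgh_Nucl2 stood apart in the clusters it held, as the next comparison shows.

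The first comparison asked whether the 2 grasses held the 19 clusters in the same proportions. Between the Setaria replicates, 6.67% of nuclei would have to change cluster for the shares to match. Between Sorgh_Nucl and Sorgh_Nucl1 that value was 5.69%. It was 15.7% between Sorgh_Nucl and Sorgh_Nucl2 and 14.5% between Sorgh_Nucl1 and Sorgh_Nucl2. The 6 pairs of a Setaria and a sorghum library differed by 10.8% to 17.5%, with a median of 13.8%. Both pairs with Sorgh_Nucl2 thus differed by more than that median, and maize nuclei libraries differed among themselves by 16.5% to 27.9%. Both ends of the maize range involve a library of only 113 nuclei, and the maize pairs without it differed by 19.4% to 26.8%. The effective number of clusters, which is 19 when all are equally common, was 16.2 and 15.4 in Setaria and 15.1, 15.5 and 15.1 in sorghum. The mean was 15.8 ± 0.589 (SD, n = 2) in Setaria and 15.2 ± 0.253 (SD, n = 3) in sorghum. These ranges overlapped, and a two-sided exact permutation test returned p = 0.4 (adjusted p = 0.4 over 5 library values), where 0.2 is the smallest p that 2 against 3 libraries allow.

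No cluster passed the test of shares. In edgeR's quasi-likelihood test on nuclei per cluster and library, 0 of 19 clusters (0%) had an adjusted p (Benjamini-Hochberg) under 0.05, and 3 clusters, 11, 12 and 16, had an unadjusted p under 0.05. DESeq2 called 0 clusters with 2 at an unadjusted p under 0.05, and limma on log2 odds called 0 with 1. Standard errors of the log2 difference ran from 0.31 to 0.43. In 7 of 19 clusters (36.8%) both Setaria libraries lay outside the range of the 3 sorghum libraries. Setaria shares were the higher ones in 4 clusters (21.1%), 3, 4, 7 and 16, and the lower ones in 3 clusters (15.8%), 9, 11 and 12. With 2 against 3 libraries, such a separation in any given cluster has a two-sided exact permutation p of 0.2. The same limit applies to later counts of clusters that did not overlap. Within a library the largest 95% Wilson half-width of a share was 0.710 and 0.702 percentage points in Setaria, against 1.07, 1.08 and 1.40 in sorghum. Such intervals cover counting error only.

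Cluster 12 made up 2.90% and 2.61% of Setaria nuclei, against 3.90%, 4.63% and 7.05% of sorghum nuclei. All 3 sorghum libraries were above both Setaria libraries, and Sorgh_Nucl2 was the highest. The mean was 2.75% ± 0.206 (SD, n = 2) in Setaria and 5.19% ± 1.65 (SD, n = 3) in sorghum. In the edgeR fit the log2 difference was −0.91 (SE 0.35, 95% interval −1.63 to −0.19, adjusted p = 0.295), a fold of 0.533.

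Cluster 11 made up 2.75% and 2.89% of Setaria nuclei, against 6.48%, 6.11% and 3.73% of sorghum nuclei. Here Sorgh_Nucl2 was the sorghum library nearest to Setaria. Mean shares were 2.82% ± 0.0970 (SD, n = 2) in Setaria and 5.44% ± 1.49 (SD, n = 3) in sorghum. The log2 difference was −0.95 (SE 0.41, 95% interval −1.81 to −0.10, edgeR adjusted p = 0.295), a fold of 0.516. When edgeR was fitted to the 5 libraries alone, clusters 11 and 12 were called lower in Setaria (2 of 19, 10.5%), with log2 differences of −0.96 (SE 0.28) and −0.90 (SE 0.28) and an adjusted p of 0.0224 each. Cluster 11 then lost its call without Sorgh_Nucl (adjusted p = 0.135), and both lost it without Sorgh_Nucl1 (edgeR adjusted p = 0.165 for cluster 11 and 0.161 for cluster 12) or without either Setaria library (edgeR adjusted p = 0.445 without replicate 1 and 0.281 without replicate 2 for both clusters).

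Cluster 9 held 4.05% and 4.77% of Setaria nuclei, against 6.48%, 5.72% and 7.70% of sorghum nuclei. Its log2 difference was −0.58 (SE 0.34, 95% interval −1.30 to 0.13, edgeR adjusted p = 0.488). On the other side, cluster 3 held 8.41% and 7.82% of Setaria nuclei, against 4.34%, 4.44% and 6.45% of sorghum nuclei. The log2 difference of cluster 3 was 0.68 (SE 0.43, 95% interval −0.22 to 1.58, edgeR adjusted p = 0.489), or 1.61-fold. Cluster 16, a small cluster, held 2.32% and 1.72% in Setaria, against 1.07%, 1.41% and 1.29% in sorghum. Its log2 difference was 0.69 (SE 0.33, 95% interval 0.01 to 1.37, edgeR adjusted p = 0.306), also 1.61-fold. Clusters 4 and 7 had smaller log2 differences of 0.33 (SE 0.32, edgeR adjusted p = 0.657) and 0.45 (SE 0.35, adjusted p = 0.618).

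In cluster 5 a single sorghum library stood apart. It held 11.0% and 10.6% of Setaria nuclei, against 5.44%, 5.85% and 12.4% of sorghum nuclei, so Sorgh_Nucl2 alone lay above Setaria. The edgeR log2 difference was 0.46 (SE 0.40) over the 9 nuclei libraries. In a fit to the compared libraries without Sorgh_Nucl2, a choice made after seeing the data, it was 0.94 (SE 0.17). That fit, which also left out maize, called 7 clusters, with 1, 9, 11 and 12 lower and 3, 5 and 16 higher in Setaria. With maize kept, leaving out Sorgh_Nucl2 called 0 of 19 clusters (3 at an unadjusted p under 0.05 in edgeR). The 2 Setaria libraries differed from each other by at most 1.37-fold in any cluster, in cluster 2 with 9.14% and 12.5%. The 3 sorghum libraries differed by up to 3.16-fold in cluster 14, which held 2.59% and 2.01% of Setaria nuclei and 2.42%, 3.06% and 0.968% of sorghum nuclei. In cluster 18 they differed by 2.92-fold, with 1.15% and 0.936% in Setaria and 0.520%, 0.851% and 1.52% in sorghum. The most common clusters overlapped between the grasses. Cluster 0 held 10.9% and 12.4% of Setaria nuclei and 13.1%, 12.9% and 10.8% of sorghum nuclei. Cluster 1 held 8.59% and 8.09% of Setaria nuclei and 13.2%, 9.99% and 8.30% of sorghum nuclei, with an edgeR log2 difference of −0.33 (SE 0.41). Clusters 6, 8, 10, 13, 15 and 17, which also overlapped, had log2 differences between 0.07 and 0.44.

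**Figure D1:**
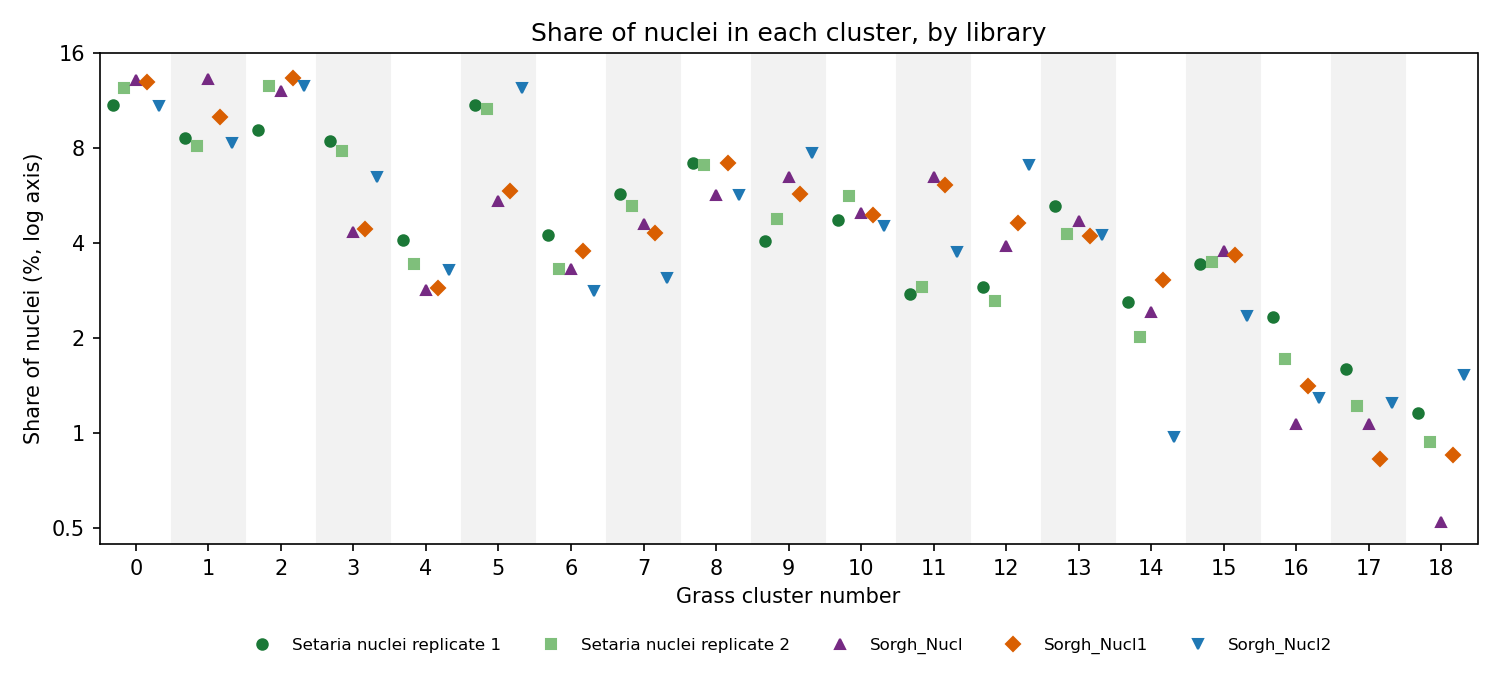
Share of each library's nuclei (percent, log axis) in grass clusters 0 to 18, with 1 point per library, 2 for Setaria and 3 for sorghum. The Setaria points of clusters 3, 4, 7 and 16 lie above all sorghum points and those of clusters 9, 11 and 12 below them, while Sorgh_Nucl2 lies away from the other 2 sorghum libraries in cluster 5 (12.4%) and cluster 14 (0.968%).

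Because depth differed between libraries, shares were also counted among nuclei of matched UMIs, between 1414 and 2828. This window held 71.8% and 63.4% of Setaria nuclei, against 25.3%, 53.1% and 76.0% of sorghum nuclei. Clusters 3, 4 and 7 again had both Setaria libraries above all sorghum libraries, and clusters 9 and 12 again had both below. The same 5 clusters kept these positions when all nuclei of at least 1318 UMIs were counted. Both sets are parts of the nuclei counted before, so kept positions are not independent results. In Sorgh_Nucl the cut at 1318 UMIs raised cluster 0 from 13.1% to 23.0%, so such shares also depend on the UMIs of each cluster. Of all 19 clusters, 5 had both Setaria libraries above all sorghum libraries in the window and 2 below. Among nuclei of at least 1318 UMIs these counts were 4 and 2 of 19. In the window, cluster 3 held 10.2% and 9.21% in Setaria, against 2.68%, 5.96% and 6.55% in sorghum. Cluster 9 there held 2.94% and 3.30% in Setaria, against 11.0%, 4.16% and 7.52% in sorghum, and cluster 12 held 3.14% and 2.58% in Setaria, against 4.32%, 5.11% and 7.34% in sorghum.

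Clusters 11 and 16 did not keep their positions at matched UMIs. Cluster 11 held 3.22% and 3.56% of Setaria nuclei in the window, against 2.37%, 8.71% and 4.07% of sorghum nuclei, so Sorgh_Nucl lay below Setaria. Cluster 16 held 1.44% and 0.628% in Setaria, against 1.44%, 0.851% and 1.15% in sorghum. None of the 19 clusters was called in the window, where edgeR's adjusted p was 0.279 for cluster 9, 0.435 for cluster 12 and 0.659 for cluster 11, and 2 clusters, 9 and 14, had an unadjusted p under 0.05. Clusters 10 and 13 came to lie above all sorghum libraries in the window. Cluster 13 did so among nuclei of at least 1318 UMIs as well, at 5.24% and 4.25% in Setaria, against 3.79%, 4.20% and 4.21% in sorghum.

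Protoplasts, whole cells whose walls were digested away, were deposited for the same 2 species, in 3 Setaria libraries and 1 sorghum library that mix 2 chemistry versions. Their shares are given beside the nuclei without a test. Cluster 12 held 4.99%, 3.32% and 3.22% of Setaria protoplasts and 4.46% of sorghum protoplasts. Cluster 11 held 14.8%, 3.70% and 3.67% in Setaria and 7.38% in sorghum. In cluster 3 the Setaria shares were 5.30%, 9.0% and 9.64% and the sorghum share was 4.17%. Cluster 4 held 8.56%, 16.6% and 16.1% in Setaria and 6.27% in sorghum. In both clusters 3 and 4 all Setaria protoplast libraries lay above sorghum, as the Setaria nuclei did. In cluster 16 the shares were 1.43%, 3.88% and 4.31% in Setaria and 5.36% in sorghum, and in cluster 7 they were 8.66%, 2.68% and 2.56% in Setaria and 8.97% in sorghum, both below sorghum where the Setaria nuclei lay above. Cluster 9, at 1.22%, 4.08% and 4.70% in Setaria and 3.38% in sorghum, overlapped, as did clusters 11 and 12. Clusters whose nuclei overlapped could be apart in protoplasts too. All Setaria protoplast libraries lay above sorghum in clusters 6 and 15 and below it in clusters 0, 17 and 18. The clusters not listed here overlapped in protoplasts. The lone sorghum protoplast library gives no spread. Neither the match in clusters 3 and 4 nor the opposite positions in clusters 7 and 16 are therefore a result about those clusters.

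The second comparison concerned how many genes were detected in a nucleus of a given UMI count. Setaria nuclei held more UMIs, with medians of 2306 and 2552, against 1166.5, 1929 and 1856 in sorghum, and more genes, with medians of 1446 and 1549, against 985, 1368 and 1267. Among nuclei of at least 1318 UMIs the difference in median log2 UMIs was 0.28, against 0.59 over all nuclei, and that in median log2 genes was 0.11, against 0.32, with the gene medians of the 2 grasses overlapping (exact permutation p = 0.4). At 2000 UMIs the order turned. Detected genes were then 1296 and 1285 in Setaria, against 1429, 1396 and 1353 in sorghum. Both Setaria libraries lay below all 3 sorghum libraries, by a mean log2 difference of −0.11 (a fold of 0.927), with an exact permutation p of 0.2, the smallest possible, and an adjusted p of 0.25. With each of the 13 clusters measured in all 5 libraries weighted equally, the log2 difference was −0.11 as well (exact permutation p = 0.2). Whether the clusters' shares play a part was not tested.

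The gap in detected genes ran over a wide range of UMIs. At 1500 UMIs Setaria nuclei had 1049 and 1054 genes, against 1175, 1114 and 1072 in sorghum. Setaria replicate 2 had only 24 nuclei in the UMI bin centred at 1579, against 880 in that at 1878. Its value at 1500 UMIs therefore rests mainly on nuclei with more UMIs. Sorgh_Nucl1 had no nucleus under 1318 UMIs, so its range below 1500 UMIs was cut short as well. At 3000 UMIs Setaria nuclei had 1736 and 1727 genes, against 1889, 1842 and 1824 in sorghum. In all 9 UMI bins centred from 1579 to 6317 UMIs, both Setaria medians lay below all 3 sorghum medians, and the ratio of Setaria to sorghum was between 0.924 and 0.959. Maize nuclei libraries had 1506 to 1593 genes at 2000 UMIs, above both grasses. However, no maize nucleus had fewer than 1252 genes or 1461 UMIs, and the window starts at 1414 UMIs. The lowest gene counts were 802 and 841 in Setaria and 601, 982 and 601 in sorghum. The maize library with fewest nuclei in the window had 40. Whether this floor or the version 2 chemistry affected the maize values was not tested. The genome builds and gene annotations against which each grass was counted were not given in the sources used here, and their part in the result cannot be told apart from the species. Sequencing depth per library, as reads, is unknown from this table.

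**Figure D2:**
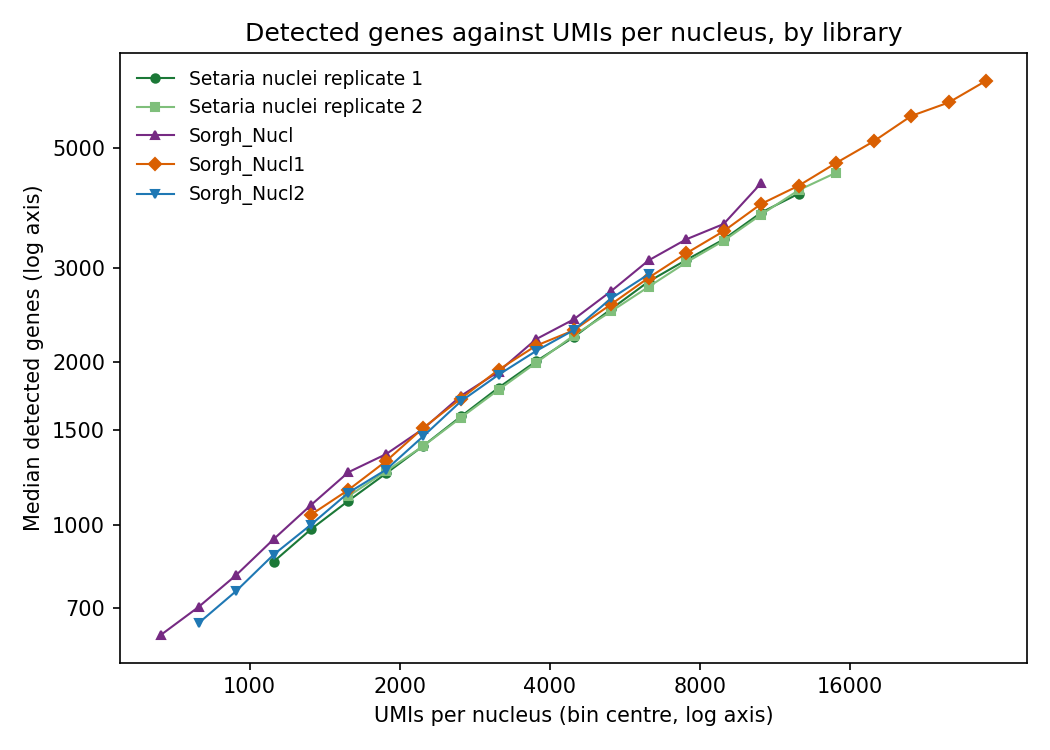
Median detected genes per nucleus (log axis) in bins of UMIs per nucleus (log axis), with 1 line per library, 2 for Setaria and 3 for sorghum. The 2 Setaria lines lie below the sorghum lines in all 9 bins from 1579 to 6317 UMIs, with a ratio of 0.924 to 0.959.

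Cluster by cluster, the gap at 2000 UMIs had the same sign in all clusters measured, cluster 6 turning to 0.011 only in the median of nuclei with 2000 to 4000 UMIs. A cluster entered with at least 20 nuclei in the window in at least 2 libraries of each group, which 16 of 19 clusters met. In limma's robust test 14 of 16 clusters (87.5%) were called lower in Setaria and 0 higher, and in 16 of 16 (100%) both Setaria libraries lay below every sorghum library measured. Log2 differences ran from −0.14 in cluster 14 to −0.07 in cluster 15, with a median of −0.11 and adjusted p-values of 0.0053 to 0.0923. Clusters 4 and 15, both at −0.07, did not pass (limma adjusted p = 0.0906 and 0.0923). Sorgh_Nucl, the library with most genes at 2000 UMIs, had too few nuclei to enter either of them, and Sorgh_Nucl2, the sorghum library with fewest, too few to enter cluster 14. With a minimum of 10 nuclei these libraries entered, the differences were −0.11 in all 3 clusters (limma adjusted p = 0.0116 each), and 19 of 19 clusters were called lower in Setaria. The size depended on how UMIs were matched. The median difference was −0.04 when log2 genes were averaged over equal-weight UMI bins that held nuclei, where cluster 14 was at −0.0044, and −0.05 for the median of nuclei with 2000 to 4000 UMIs, and neither called a cluster (3 and 1 at an unadjusted p under 0.05 in limma). The spread in this fit is pooled over clusters whose values move together within a library, so the 14 calls are not 14 independent results. They stand on the single library-level difference, whose exact permutation p is 0.2. Without Setaria replicate 1 the median difference was −0.12 and without replicate 2 it was −0.10. The standard error was then 0.06, against 0.04 with both, as the lone Setaria library was assumed to vary like the other groups, and 0 clusters were called (9 and 4 at an unadjusted p under 0.05 in limma). The call also ended at 1500 UMIs, with 0 of 14 clusters called and a median log2 difference of −0.09 (0 at an unadjusted p under 0.05), whereas at 3000 UMIs 11 of 11 were called lower in Setaria by limma.

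Cluster 7 had the most genes at 2000 UMIs in 4 of the 5 libraries, with 1324 and 1311 in Setaria, against 1514, 1413 and 1359 in sorghum. Cluster 9 had fewer, with 1279 and 1264 in Setaria, against 1378, 1391 and 1343 in sorghum. The 2 grasses were separated in both clusters. Cluster 12, with the lower Setaria share, had 1316 and 1300 genes in Setaria, against 1478, 1407 and 1352 in sorghum. Cluster 3, with the higher Setaria share, had 1285 and 1280, against 1441, 1401 and 1352. Both showed the gap, as did all clusters compared. Within a library the clusters differed little, as the highest was 1.05 and 1.04 times the lowest in Setaria, against 1.10, 1.02 and 1.02 times in sorghum.

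**Figure D3:**
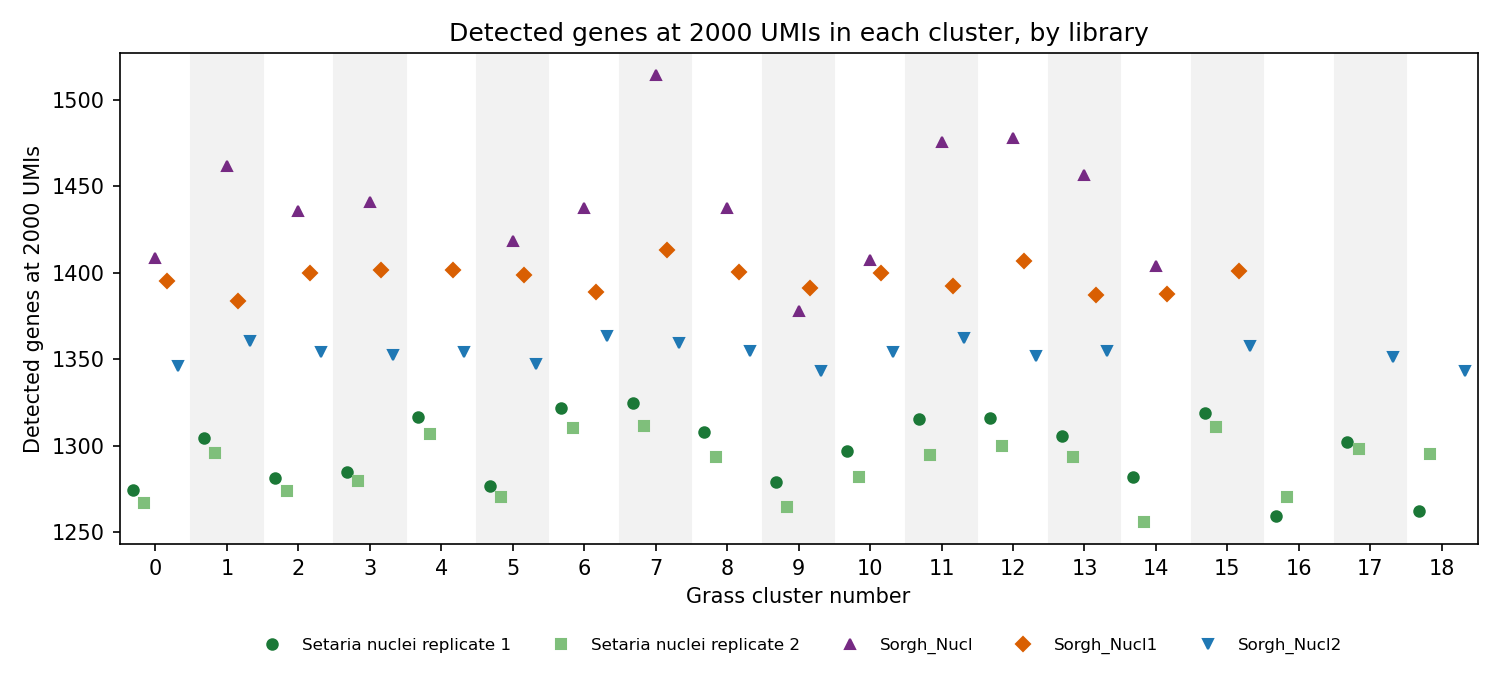
Detected genes at 2000 UMIs in each cluster and library (vertical axis, genes per nucleus, not starting at 0), with 1 point per library having at least 20 nuclei between 1414 and 2828 UMIs. In all 16 clusters compared the Setaria points lie below the sorghum points, and in cluster 7 they are 1324 and 1311 genes, against 1514, 1413 and 1359 in sorghum.

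To see whether some clusters departed from this shared gap, each value was taken relative to its library's median over the 13 clusters measured in all 5 libraries. Few clusters departed, and by little. In limma's test 2 of 16 clusters (12.5%) were called, both lower in Setaria, and 5 had an unadjusted p under 0.05. The libraries of the 2 grasses did not overlap in 7 of 16 clusters (43.8%), with 3 higher (18.8%) and 4 lower (25%) in Setaria. Cluster 2 lay at −0.026 and −0.022 on the log2 scale in Setaria, against −0.0016, 0.0009 and −0.0002 in sorghum, a difference of −0.023 (SE 0.0036, adjusted p = 0.00809). Cluster 3 lay at −0.021 and −0.015 in Setaria, against 0.0033, 0.0024 and −0.0019 in sorghum, a difference of −0.020 (SE 0.0040, adjusted p = 0.0273). Both amount to folds of 0.984 and 0.987. At 1500 UMIs, at 3000 UMIs and with a minimum of 10 nuclei 0 clusters were called by limma, with 3, 2 and 3 at an unadjusted p under 0.05. Leaving out a library other than Sorgh_Nucl also gave 0 calls, with 2 or 3 clusters at an unadjusted p under 0.05, while leaving out Sorgh_Nucl gave 8.

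The third comparison asked which clusters held more or fewer UMIs than the other clusters of their own library. In limma's test on the median log2 UMIs of a cluster relative to its library's median over clusters, 0 of 19 clusters (0%) were called, and 1, cluster 14, had an unadjusted p under 0.05. Differences ran from −0.58 to 0.20 with standard errors of 0.08 to 0.41. The libraries of the 2 grasses did not overlap in 3 of 19 clusters (15.8%), 1 higher (5.26%) and 2 lower (10.5%) in Setaria. Cluster 14 stood highest in all libraries but Sorgh_Nucl, at 0.57 and 0.63 in Setaria, against 1.04, 1.51 and 0.97 in sorghum. That is a difference of −0.58 (SE 0.18, limma adjusted p = 0.340). Cluster 17 lay at −0.06 and −0.10 in Setaria, against 0.10, 0.29 and 0.11 in sorghum, a difference of −0.24 (SE 0.11, limma adjusted p = 0.622). Only cluster 5 lay higher in both Setaria libraries, at 0.09 and 0.03, against −0.07, −0.29 and −0.04 in sorghum, a difference of 0.20 (SE 0.10, limma adjusted p = 0.622).

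Clusters 0, 9, 14, 16 and 18 had the highest relative UMIs in Sorgh_Nucl and Sorgh_Nucl1. Cluster 0 lay at 0.13 and 0.06 in Setaria, against 0.85, 1.18 and −0.01 in sorghum, so Sorgh_Nucl2 lay just below Setaria and the other 2 sorghum libraries far above. Its difference was −0.58 (SE 0.34) over all libraries and −0.92 (SE 0.19, limma adjusted p = 0.0165) without Sorgh_Nucl2. Cluster 9 lay at 0.30 and 0.25 in Setaria, against 0.78, 1.03 and −0.03 in sorghum. Cluster 18 lay at 0.47 and 0.48 in Setaria, against 1.28, 0.91 and −0.03 in sorghum. Without Sorgh_Nucl2, limma called these 5 clusters lower in Setaria, with 0 higher. The clusters of a library spanned 0.67 and 0.77 log2 units in Setaria, against 1.51, 1.89 and 1.01 in sorghum, a narrower span in both Setaria libraries than in any sorghum library.

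**Figure D4:**
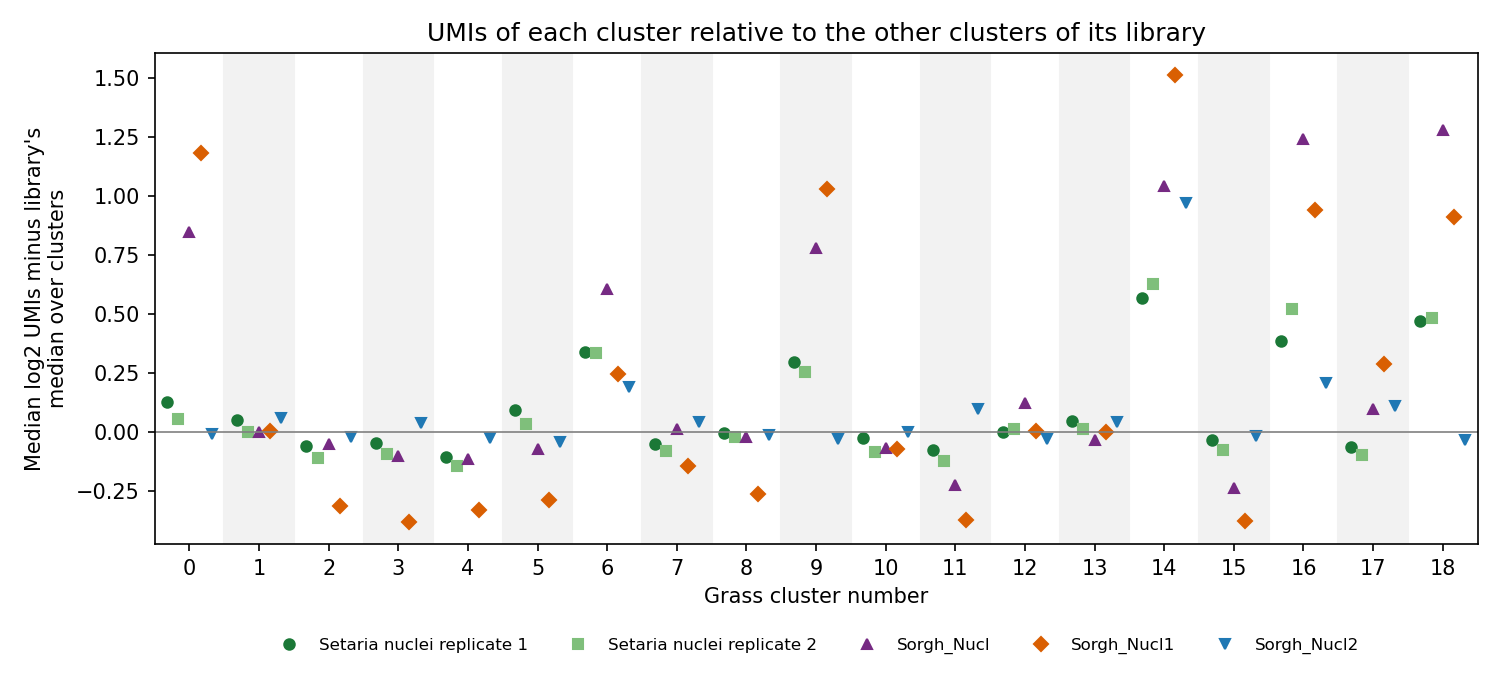
Median log2 UMIs of each cluster minus the median over clusters of the same library (vertical axis, log2 units), with 1 point per library, 2 for Setaria and 3 for sorghum. Sorgh_Nucl and Sorgh_Nucl1 lie well above Setaria in cluster 0 (0.85 and 1.18, against 0.13 and 0.06 in Setaria), whereas Sorgh_Nucl2 lies at −0.01.

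The same libraries differed in their nuclei with most UMIs. Nuclei over 4000 UMIs made up 11.5% and 14.3% of Setaria nuclei, against 8.14%, 32.2% and 8.07% of sorghum nuclei. In cluster 0 they were 20.1% and 25.9% in Setaria, against 15.4%, 64.9% and 11.1% in sorghum. In cluster 14 they were 37.3% and 49.4% in Setaria, against 28.0%, 69.6% and 47.6% in sorghum. Sorgh_Nucl1 was the highest library in each case. In cluster 18 they were 37.2% and 38.8% in Setaria, against 30.0%, 46.9% and 0 of 33 nuclei in Sorgh_Nucl2. When the nuclei over 4000 UMIs alone were divided among clusters, the grasses did not overlap in 6 of 19 clusters (31.6%), with Setaria higher in clusters 5, 6 and 18 (15.8%) and lower in clusters 1, 4 and 12 (15.8%). Such nuclei numbered 857 and 1222 in Setaria, against 313, 1213 and 175 in sorghum, so some clusters held few. Cluster 4 held 8 and 6 of them in Setaria, against 4, 13 and 3 in sorghum. Cluster 18 held 32 and 31 in Setaria, against 6, 15 and 0 in sorghum. Cluster 5 held 11.0% and 8.67% of them in Setaria, against 2.24%, 4.29% and 5.71% in sorghum. Cluster 6 held 8.52% and 8.02% in Setaria, against 5.75%, 4.45% and 5.14% in sorghum, and cluster 1 held 7.70% and 6.22% in Setaria, against 9.27%, 9.15% and 10.9% in sorghum. Whether such nuclei are doublets was not tested, since how doublets were treated was not given in the sources used here.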

How the data were processed

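The deposited grass table lists, per cell or nucleus, counts of UMIs and of detected genes as made by the authors, not normalized, with the library and a cluster number. Per the submitters' processing notes, Cell Ranger 5.0.1 and Seurat 4.0 were used. The grass genome builds, filters on nuclei and treatment of doublets were not given in the sources used here, and 3 libraries of another study were not used. The sorghum libraries are called by their names in the table. These fix the group but not which replicate of the labels a library is, and no test uses that number.

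Nuclei per cluster (at least 10 over the 5 libraries) were fitted in edgeR 4.0.16 by quasi-likelihood (robust, without a trend), with all nuclei of a library as library size and 1 coefficient for each of the 3 grasses over 9 nuclei libraries. Detected genes at 2000 UMIs were read from a line of log2 genes on log2 UMIs over nuclei of 1414 to 2828 UMIs, for clusters with at least 20 such nuclei in a library, and tested with limma 3.58.1 (robust eBayes). Of the 4 maize libraries, 3 reached that minimum in some clusters and the other entered no such fit. Relative values subtract the library's median over clusters, and relative UMIs use clusters of at least 20 nuclei. Library values had a two-sided exact permutation test over 10 splits. The Benjamini-Hochberg adjustment ran over the clusters of 1 contrast or the 5 library values, with a threshold of 0.05. Any of the 19 clusters may be mentioned by its number, and the scripts were tested on simulated data. The simulated clusters varied independently within a library, so shared movement of clusters was not simulated. Libraries held 2169 to 8551 nuclei, so a cluster with 0 nuclei could still make up 0.0351% to 0.138% (3 counts). Replicates differed beyond sampling noise (chi-square test of nuclei per cluster, p = 8.06e-15 for Setaria and 0.00113 for the closest sorghum pair). The libraries, clusters and tests were chosen with earlier results of these data known. R 4.3.3, DESeq2 1.42.0 and scipy 1.17.1 were also used, and the alternatives tried are given at the end.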

Additional observations from a re-analysis of the deposited data

How the results depend on the processing

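The count of clusters called in share stayed at 0 in all settings but the fit to the 5 libraries alone, which gave 2. Leaving out each library of that smaller fit, chosen after seeing the data, gave 0 to 7, with 7 without Sorgh_Nucl2. Calls in genes at 2000 UMIs numbered 14. They numbered 0 at 1500 UMIs (0 at an unadjusted p under 0.05), 0 for the median of nuclei with 2000 to 4000 UMIs (1) and 0 with equal-weight UMI bins (3), and 0 to 14 with 1 library left out, where 0 arose without Setaria replicate 1 or 2 and 9 without Sorgh_Nucl1. Calls in relative genes numbered 2, against 0 at 1500 UMIs, 3000 UMIs, the 2000 to 4000 median, equal-weight bins and a minimum of 10 nuclei, 1 with the 5 libraries alone, and 0 to 8 with 1 library left out. Fitting all grass libraries changed no value there, since only 1 protoplast library had the 3 clusters needed for a library median and, alone in its group, it added nothing to the spread. Calls in relative UMIs stayed at 0 apart from leaving out libraries, which gave 0 to 5, with 5 without Sorgh_Nucl2. Among called clusters the sign turned for genes in cluster 6 (0.011) and for relative genes in cluster 3 (0.0081), both in the 2000 to 4000 median. Called or not, signs turned in at least 1 setting in 8 of 19 clusters for shares (cluster 16 at −0.13 in the UMI window), 1 of 16 for genes, 13 of 16 for relative genes and 11 of 19 for relative UMIs. The cause of these changes was not tested. The library-level log2 difference in genes at 2000 UMIs kept its sign, at −0.09 for 1500 UMIs, −0.10 for 3000 UMIs and −0.13 to −0.09 with 1 library left out. With 2 and 3 libraries, exact tests cannot pass the threshold. No paired analysis was possible because the labels state no link between Setaria and sorghum libraries of one number, and the names in the table do not settle which replicate of the labels each sorghum library is.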
